A study of Homo sapiens with 4 samples.

Results

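The mitochondrial ribosomal protein genes of human fibroblasts were described before and after induction of the transcription factor FOXA2. Members were the rows of the deposited expression table whose symbol is MRPL or MRPS followed by a number, with or without a letter A to C, and which reached 1 FPKM uninduced, induced or both. FPKM scales the fragments of a gene by transcript length and by sequencing depth, so that levels can be compared between genes. Of 63651 rows in the table, 86 carried such a symbol and 77 passed the threshold. The 77 rows stand for 76 genes, 47 of the large subunit (MRPL) and 29 of the small subunit (MRPS), among 14319 genes kept by the same threshold. MRPS17 had 2 rows above it, and the row with the higher mean was used. Nearest to the threshold were that further row of MRPS17 inside it, at 0.181 and 1.52 FPKM, and a further row of MRPL30 outside it, at 0.711 FPKM uninduced.

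The cells were a clonal line derived from BJ-5ta, foreskin fibroblasts immortalised with telomerase, that carries FOXA2 under doxycycline control. The labels give 2 uninduced samples without doxycycline and 2 induced samples with 0.5 µg/ml doxycycline, and both groups carry the transgene and grew in hygromycin B, puromycin and bFGF. An overnight mimosine arrest in G1 is also described, without the cultures it was used on, and the labels do not say whether both groups come from the same clone. Each group has 1 FPKM per gene and a deposited interval, so differences carry neither a test nor a replicate check. A doxycycline control lacking FOXA2 was not analysed here, so the drug and FOXA2 cannot be told apart. In bulk RNA, fewer cells of a type and less RNA per cell cannot be told apart either.

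Mitochondria translate their own small set of messenger RNAs, which encode core subunits of the respiratory chain and of ATP synthase, on a dedicated ribosome. Its ribosomal RNAs come from mitochondrial DNA, whereas all of its proteins are made from nuclear genes and imported. The small subunit reads the messenger RNA, and the large subunit joins the amino acids and releases the chain at the inner membrane. Doxycycline belongs to the tetracyclines, which bind the small subunit of bacterial ribosomes and also inhibit the mitochondrial ribosome, so the drug used to switch the transgene on acts on the particle that these genes build.

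A gene is called here, as risen or fallen, when the uninduced and the induced interval are apart. By this criterion FOXA2 rose, with 4.82 FPKM uninduced (interval 0.526 to 9.12) and 104 FPKM induced (50.2 to 158). All 10 fibroblast markers of a fixed list were above the threshold, with FPKM sums of 5306 uninduced and 4983 induced. Of the 10, 0 rose or fell, but only 1.18% of all kept genes did, so a count of 0 says little. Single markers were far apart in both directions: THY1 was at 388 and 92.5 FPKM, VIM at 2098 and 905 FPKM, FN1 at 863 and 2111 FPKM, and COL3A1 at 125 and 445 FPKM. Of 24 markers of 6 other cell types, 5 were above it and 10 were listed at 0 in both columns. Their summed levels ranged over the 6 types from 0 to 16.2 FPKM uninduced and from 0.0579 to 10.7 FPKM induced. Of these markers 0 rose or fell, with the same limit. The sum of all FPKM was 553536 uninduced and 482743 induced, and the number of reads is unknown.

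Most mitochondrial ribosomal protein genes had slightly lower values in the induced column, and 0 of 76 rose or fell. Over all 14319 kept genes 169 did (1.18%), 104 of them upwards (0.726%) and 65 downwards (0.454%). Differences are given as log2(FPKM + 1), induced minus uninduced, a scale that understates changes of low values. The difference was below 0 for 65 of 76 members as deposited, for 59 with both columns scaled to the same sum and for 62 after quantile normalization. Among all kept genes 46.3% were below 0 and 53.7% above 0 as deposited, 34.5% were below 0 with equal sums and 50.9% after quantile normalization. The median difference of the members was -0.41 with quartiles of -0.64 and -0.23, a ratio of 0.752 at the median, against a median of 0.05 for all kept genes. Set against that median of all genes, the members lay at -0.46 as deposited, at -0.45 with equal sums, which moved that median to 0.23, and at -0.32 after quantile normalization. Equal sums shift members and other genes nearly alike, so the value of -0.45 was bound to stay close to -0.46. A looser criterion took a difference in FPKM larger than the distances from FPKM to upper bound of both columns, combined in quadrature. It also called 0 of 76 members, against 2.37% of kept genes (1.26% upwards and 1.11% downwards). A difference of 1 or more was reached by 0 members and 9.2% of kept genes.

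Of the 76 members, 74 were above 10 FPKM in both columns. Uninduced levels ran from 8.89 FPKM (MRPL30) to 146 FPKM (MRPL33) with a median of 48.9, and induced levels from 9.60 FPKM (MRPS17) to 85.6 FPKM (MRPL33) with a median of 37.2. The order of the genes by level was much the same in both columns (Spearman rho 0.89 over 76 genes, which share the same libraries). The members summed to 4255 FPKM uninduced and 3035 FPKM induced, or 0.769% and 0.629% of the table.

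**Figure D1:**
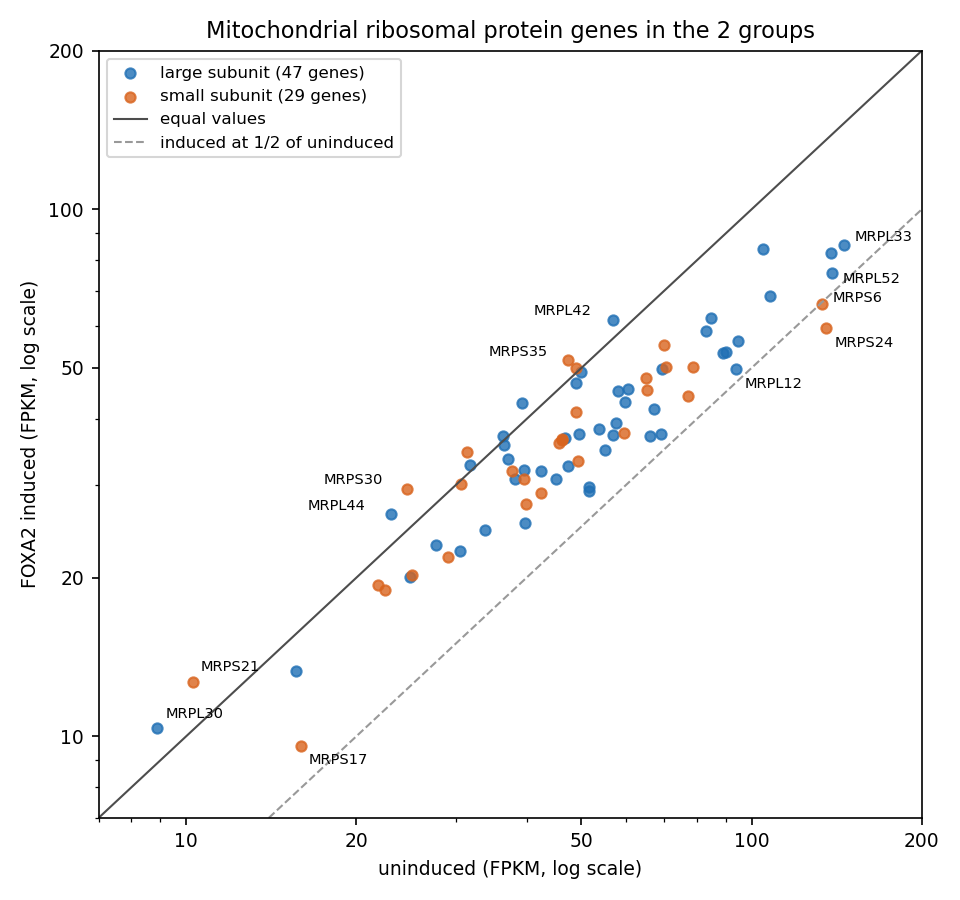
Each dot is 1 of 76 genes, with its uninduced FPKM on the horizontal and its induced FPKM on the vertical log axis, coloured by subunit. Most dots lie below the line of equal values, and MRPS24 and MRPS6 lie at or beyond the dashed line where the induced value is 1/2 of the uninduced value.

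The small subunit held the lowest and the highest differences. MRPS24 (ENSG00000062582, deposited span chromosome 7, 43906157 to 43966010 in hg19) corresponds to a bacterial protein at the messenger RNA entry site. It was at 135 FPKM uninduced (interval 34.4 to 236) and 59.6 FPKM induced (3.22 to 116). Its log2 difference of -1.17 was the lowest of all members, and its intervals overlapped, although the uninduced value lay above the upper bound of the induced interval. MRPS6 (deposited span chromosome 21, 35445524 to 35732332) was at 133 FPKM (18.0 to 249) and 66.1 FPKM (1.85 to 130), a difference of -1.002. These were the 2 members at -1 or below, where 6.03% of kept genes lay, and with equal sums or quantile normalization 0 members reached -1. Both share their span in the table with other kept genes, so the reads may not all belong to 1 gene. A deposited span can cover several genes and is not the extent of the named gene.

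MRPS16, MRPS17 and MRPS11 followed, and their intervals were too wide to separate the columns. MRPS16 was at 77.3 and 44.3 FPKM, with lower bounds of 0 in both columns. MRPS17 was at 15.9 and 9.60 FPKM, also with lower bounds of 0. MRPS11 was at 59.5 and 37.7 FPKM. All 3 share their span with other kept genes. MRPS34, a mitochondria-specific protein and the third most abundant transcript of the small subunit, was at 78.7 FPKM (interval 30.7 to 127) and 50.1 FPKM (15.1 to 85.2). MRPS12, the counterpart of the bacterial protein at the decoding centre, was at 42.4 and 28.97 FPKM, a difference of -0.53.

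At the upper end of the small subunit 5 of 29 genes lay above 0, all by less than 0.3 log2 units. MRPS21 (deposited span chromosome 1, 150266289 to 150281414) was at 10.3 FPKM (0.629 to 19.9) and 12.7 FPKM (1.32 to 24.1). Its difference was 0.28, and it was the second lowest of the members in mean level. MRPS30 was at 24.6 and 29.5 FPKM (0.25), MRPS18A at 31.4 and 34.6 FPKM (0.13), MRPS35 at 47.4 and 51.8 FPKM (0.13) and MRPS10 at 48.8 and 50.02 FPKM (0.03). MRPS30 and MRPS18A carry a small subunit name but are known from structures to sit in the large subunit. MRPS18A is 1 of 3 related proteins, and the other two, MRPS18B and MRPS18C, stay in the small subunit. MRPS18B was at 46.2 and 36.5 FPKM and MRPS18C at 45.6 and 35.96 FPKM, each with a difference of -0.33. MRPS36, now assigned to the 2-oxoglutarate dehydrogenase complex and not to the ribosome, was at 30.7 and 30.1 FPKM (-0.03), and its difference was 0.16 with equal sums.

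In the large subunit the lowest difference was that of MRPL12, the stalk protein that recruits translation factors. MRPL12 (ENSG00000262814, deposited span chromosome 17, 79670387 to 79688042) was at 93.9 FPKM (interval 32.4 to 155) and 49.8 FPKM (13.3 to 86.3). Its difference was -0.90, and it shares its span with 1 other kept gene. MRPL24 was at 69.2 and 37.4 FPKM (-0.87), MRPL52 at 139 and 75.7 FPKM (-0.86) and MRPL15 at 66.1 and 37.1 FPKM (-0.81). MRPL11, the counterpart of a bacterial protein at the base of the stalk, was at 51.5 and 29.2 FPKM (-0.80). MRPL24, MRPL52, MRPL15 and MRPL11 share their span with no other kept gene. The 3 most abundant members of all were in this subunit: MRPL33 at 146 and 85.6 FPKM, MRPL51 at 138 and 82.6 FPKM, and MRPL52. The lower bound of MRPL51 was 0 in both columns, and those of MRPL33 and MRPL52 were 0 in the induced column. MRPL33 shares its span with 2 other kept genes and MRPL51 with 1.

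In the large subunit 6 of 47 genes lay above 0, and the 5 highest are given here. MRPL30 was at 8.89 and 10.4 FPKM (0.20), the lowest mean level of all members, and both of its lower bounds were 0. MRPL44, a protein with an RNase III-like fold, was at 23.0 FPKM (6.84 to 39.2) and 26.4 FPKM (7.46 to 45.3), a difference of 0.19. MRPL49 was at 39.2 and 42.9 FPKM, MRPL42 at 56.8 and 61.8 FPKM, and MRPL10, which anchors MRPL12 to the ribosome, at 31.7 and 32.7 FPKM. The differences of MRPL10 and MRPL12 were 0.04 and -0.90, with overlapping intervals in both genes.

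**Figure D2:**
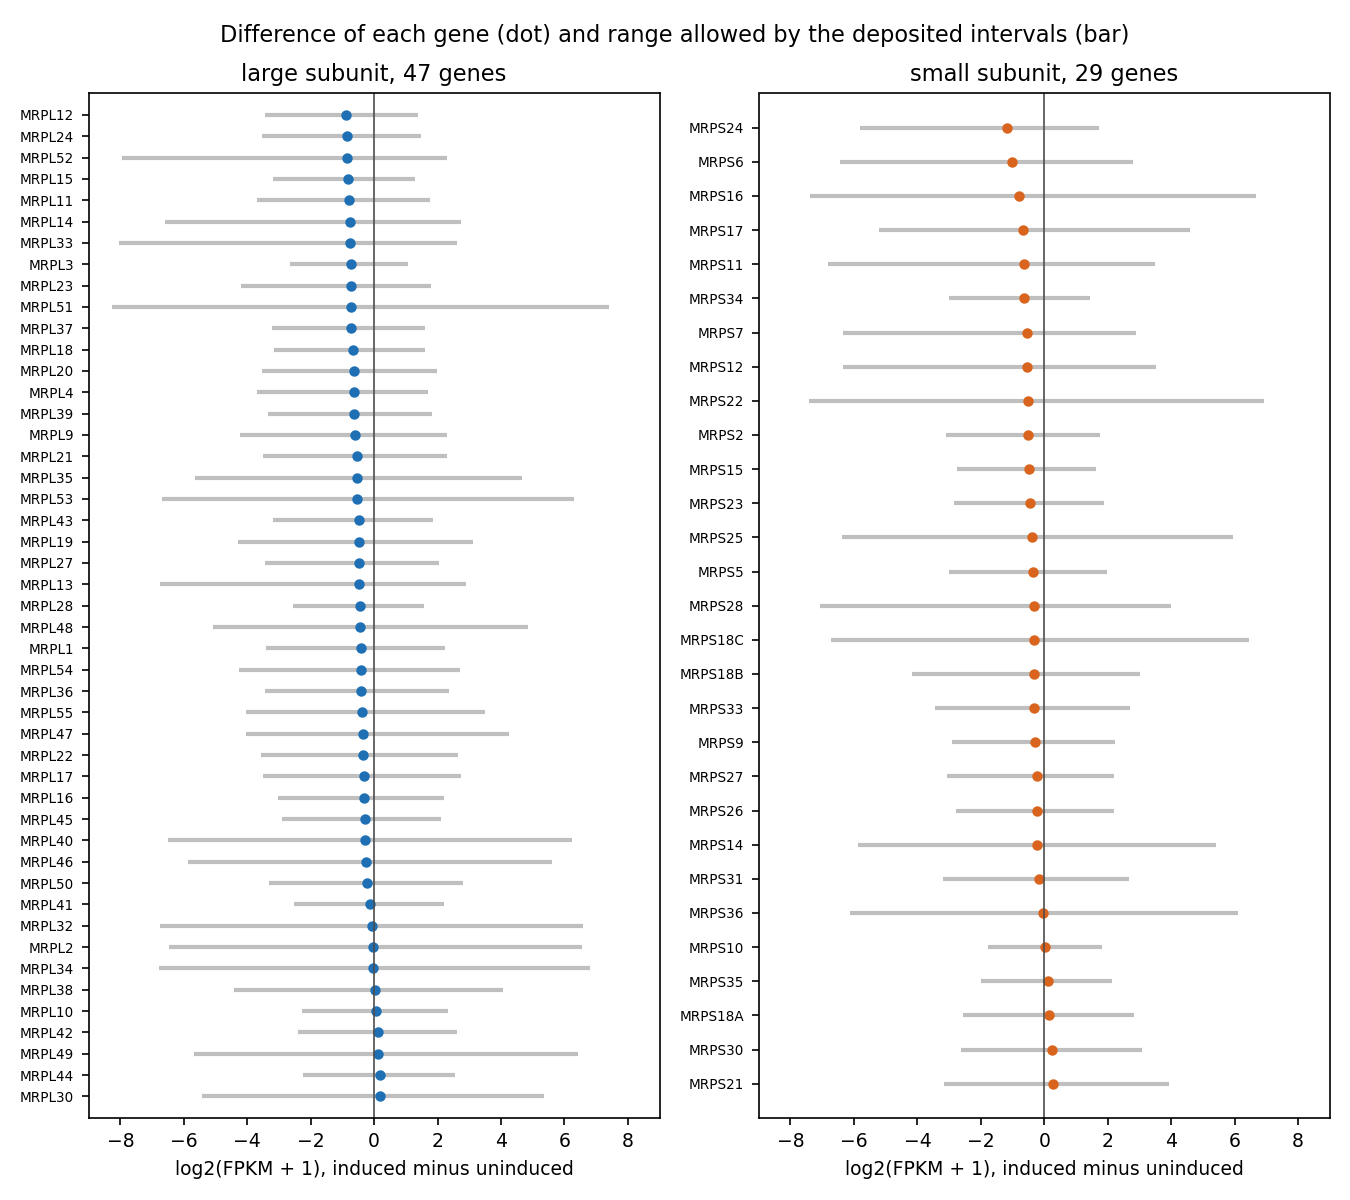
Dots give the log2(FPKM + 1) difference of each gene, induced minus uninduced, in the large (left) and small (right) subunit, and bars the range that the 2 deposited intervals allow. Every bar crosses 0, from MRPS24 at -1.17 to MRPS21 at 0.28.

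The medians of both subunits were close. The 47 large subunit genes had a median difference of -0.44 with 41 below 0, and the 29 small subunit genes a median of -0.34 with 24 below 0, so that the large minus small difference was -0.11. With MRPS30 and MRPS18A moved to the large subunit and MRPS36 left out, the medians were -0.44 and -0.37 and 3 of 26 small subunit genes lay above 0. The ratio of summed FPKM, large to small, was 1.92 uninduced and 1.87 induced. The subunit contrast was larger among the 37 members that share their span with no other kept gene: there the medians were -0.44 for 25 large and -0.10 for 12 small subunit genes, with 23 and 7 below 0. These 12 include MRPS30 (0.25), MRPS18A (0.13) and MRPS36 (-0.03), which by place are not small subunit proteins and raise that median. The contrast among these 37 without them was not computed.

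Genes with numbers carried over from bacterial ribosomal proteins were compared with those of higher number. The first group (MRPL up to 36, MRPS up to 21) had a median of -0.48 with 39 of 44 below 0, and the second a median of -0.33 with 26 of 32 below 0. The number is an imperfect guide to ancestry, since MRPS24 and MRPL47, which have bacterial counterparts, fall in the second group. Within the large subunit the medians were -0.51 and -0.35, and within the small subunit -0.42 and -0.33.

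Members with higher levels had lower differences (Spearman rho -0.57 between mean FPKM and the log2 difference over 76 genes, which share both libraries), and kept genes in general showed the same direction. Of 13 members with a mean of 10 to 30 FPKM, 10 were below 0, with a median of -0.25 against 0.05 for 4238 other kept genes of that level. Of 35 members at 30 to 50 FPKM, 29 were below 0 and the median was -0.33 against -0.07 for 1819 other genes. At 50 to 100 FPKM 23 of 24 members were below 0, with a median of -0.58 against -0.21 for 1413 other genes. The 3 members at 100 FPKM or more had a median of -0.76 against -0.34 for 771 other genes up to 300 FPKM. These 3 (MRPL33, MRPL51 and MRPL52) each had an induced lower bound of 0. Members minus other genes, the medians differed by -0.31, -0.26, -0.37 and -0.42 in these 4 ranges, less than the distance between the quartiles of the other genes.

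**Figure D3:**
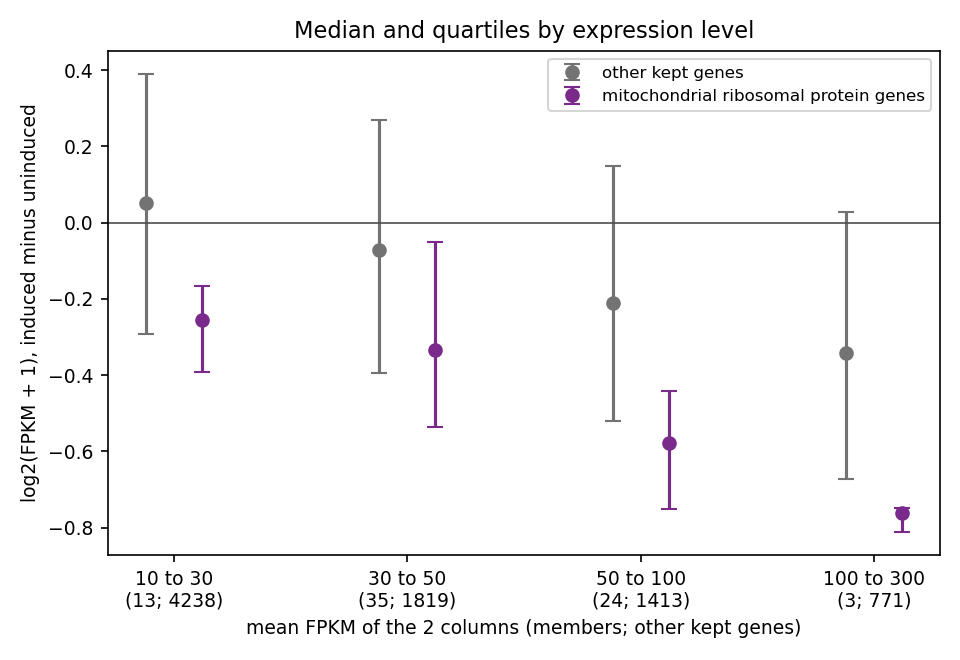
Median log2(FPKM + 1) difference with quartiles (bars) of mitochondrial ribosomal protein genes and of other kept genes, by mean FPKM, with numbers of genes under each range. Members lie lower in all 4 ranges, at -0.25, -0.33, -0.58 and -0.76, and both sets decline with level.

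Promoters were read from RefSeq (GRCh38.p14) as the 250 bases before the annotated start, which were found for 67 of 76 members. The motif CCGGAAG (reverse complement CTTCCGG), bound by GABPA and other ETS factors that are known regulators of mitochondrial genes, was present in 22 of 67 (32.8%), against 8.82% of all 27305 promoters in the table and 11.8% of 15843 protein coding ones. A match to AAGATGGC (YY1, both strands) was present in 5 (7.46%), against 1.37% of all and 1.39% of protein coding promoters. The motif of NRF1, nuclear respiratory factor, searched on both strands, was present in 7 (10.4%), against 5.53% and 7.65%, and CACGTG (MYC and other E-box factors) in 6 (8.96%), against 6.49% and 7.84%. TGTTTNC, a core of FOXA sites searched on both strands, was present in 4 (5.97%), against 15.6% and 12.4%, in MRPL17, MRPL24, MRPS10 and MRPS35. The differences of these 4 were -0.32, -0.87, 0.03 and 0.13. Their median was -0.14, against -0.42 for members without a match, and a link between motif and difference was not tested. A match is a description of letters and not a bound site.

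The 120 bases before the start are shown for the members with the lowest and highest difference in each subunit and for 3 with several matches, to let the promoters be read beside the values. Capitals mark matches to the ETS, NRF1 or YY1 motif in the window, and each sequence reads 5′ to 3′ on the strand of its gene.
MRPS24 (chr7:43869518-43869637, minus strand): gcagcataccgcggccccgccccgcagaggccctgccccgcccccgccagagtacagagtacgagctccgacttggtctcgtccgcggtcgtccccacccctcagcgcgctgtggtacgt
MRPL12 (chr17:81703247-81703366, plus strand): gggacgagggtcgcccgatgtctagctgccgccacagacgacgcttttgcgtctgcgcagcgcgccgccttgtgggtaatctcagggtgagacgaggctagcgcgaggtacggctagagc
MRPS21 (chr1:150293741-150293860, plus strand): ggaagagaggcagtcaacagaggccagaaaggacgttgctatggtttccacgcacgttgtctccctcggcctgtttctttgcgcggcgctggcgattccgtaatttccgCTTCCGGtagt
MRPL30 (chr2:99181064-99181183, plus strand): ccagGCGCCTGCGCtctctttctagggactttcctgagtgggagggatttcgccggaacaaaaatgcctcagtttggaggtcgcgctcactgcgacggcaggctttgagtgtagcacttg
MRPS34 (chr16:1773135-1773254, minus strand): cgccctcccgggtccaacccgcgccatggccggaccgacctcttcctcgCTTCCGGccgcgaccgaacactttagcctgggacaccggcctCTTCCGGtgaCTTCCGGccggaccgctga
MRPL20 (chr1:1407294-1407413, minus strand): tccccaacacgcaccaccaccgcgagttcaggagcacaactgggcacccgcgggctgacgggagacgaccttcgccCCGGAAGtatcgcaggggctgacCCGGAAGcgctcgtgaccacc
MRPL27 (chr17:50373185-50373304, minus strand): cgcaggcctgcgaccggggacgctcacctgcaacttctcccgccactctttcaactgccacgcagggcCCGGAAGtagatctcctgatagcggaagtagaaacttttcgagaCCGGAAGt
The MRPS24 and MRPL12 windows, of the lowest differences, hold 0 matches, that of MRPS21 holds 1 ETS match and that of MRPL30 1 NRF1 match. MRPS34 holds 3 ETS matches, and MRPL20 and MRPL27 hold 2 each. Over all 67 promoters the median difference was -0.42 for the 22 with an ETS match and -0.40 for the 45 without one. It was -0.44 for the 39 with neither an ETS nor an NRF1 match.

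Part of the members lie head to head with another gene. In the GENCODE v29 annotation 16 of 74 members found there (21.6%) had a protein coding gene on the other strand starting within 1000 bases upstream, against 7.37% of 19938 protein coding genes. In 1 case both genes are members: MRPL46 and MRPS11 start 34 bases apart, and were at 27.6 and 23.0 FPKM (MRPL46, -0.25) and at 59.5 and 37.7 FPKM (MRPS11, -0.65). Both have the same deposited span, so their reads may not be fully separated. Lower bounds were 0 for MRPL46 in both columns and for MRPS11 in the induced column. MRPL36 and MRPL47 face the complex I subunits NDUFS6 and NDUFB5. Libraries kept no strand, and 29 of the 74 (39.2%) overlap an exon of a gene on the other strand, against 33.8% of protein coding genes. Without these 29 members the median of the other 45 was -0.40, with 39 below 0.

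The rest of the mitochondrial translation system was described from lists of related genes. All 8 subunit proteins and partners under other symbols lay below 0, with a median of -0.37. GADD45GIP1, a large subunit protein, was at 109 and 79.4 FPKM. AURKAIP1, a small subunit protein, was at 119.5 FPKM (interval 50.8 to 188) and 65.2 FPKM (18.1 to 112), a difference of -0.87, and OXA1L, the membrane insertase next to the ribosome, at 61.4 and 61.3 FPKM. Of 13 translation factors 12 lay below 0, with a median of -0.24. TUFM, the elongation factor that delivers transfer RNA, was at 107 FPKM (39.9 to 175) and 71.1 FPKM (25.8 to 116), and MTIF3, an initiation factor, at 47.0 and 42.6 FPKM. Of 19 assembly genes 17 were found, with 12 below 0 and a median of -0.16; the helicase DHX30 was at 38.0 and 34.0 FPKM and the GTPase ERAL1 at 36.3 and 29.8 FPKM. In each of these 3 lists 0 genes rose or fell, against the 1.18% of all kept genes. With equal sums the medians were -0.18, -0.06 and 0.04, so the side of 0 depends on the scaling for the assembly genes. After quantile normalization the medians of these lists were -0.27, -0.33 and -0.25, beside -0.33 for the members.

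The RNAs of mitochondrial DNA were mixed. The 13 mitochondrially encoded messenger RNAs had a median of -0.01 as deposited, with 7 below 0. Their median was 0.18 with equal sums and 0.42 after quantile normalization. Of the 13, 0 rose or fell, against the 1.18% of all kept genes. MT-CO2 was at 1132 and 1150.3 FPKM (0.02) and MT-CO1 at 925 and 1069 FPKM (0.21). The lowest, MT-CO3 (-0.60), MT-ATP6 (-0.52), MT-ATP8 (-0.51) and MT-ND3 (-0.46), lay below the members' median of -0.41, and these 4 were picked by value. The ribosomal RNA of the small subunit, MT-RNR1, was at 235 FPKM (interval 110.3 to 360) and 299 FPKM (142 to 455), and that of the large subunit, MT-RNR2, at 569.8 FPKM (250.003 to 889.6) and 734 FPKM (296 to 1171). Both ribosomal RNAs were higher in the induced column, by 0.34 and 0.36 log2 units, with overlapping intervals. In the list of mitochondrial transcription and RNA handling 11 of 14 genes were below 0 and the median was -0.13 as deposited and 0.06 with equal sums, with SLIRP at 139 and 117 FPKM and GRSF1 at 85.5 and 62.8 FPKM. PNPT1, an RNA-degrading enzyme of mitochondria that is known to respond to interferon, was chosen after its values had been seen: it was at 19.1 FPKM (5.31 to 32.9) and 58.6 FPKM (23.5 to 93.6), a difference of 1.57, and rose by the looser criterion alone.

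Regulators and chaperones were mixed. Of 8 kept regulators of nuclear mitochondrial genes 6 were below 0, with a median of -0.21, and PPARGC1A and PPARGC1B were under the threshold. With equal sums 4 of the 8 were below 0 and their median was -0.02, and after quantile normalization it was -0.24. YY1 was at 55.3 and 52.7 FPKM and MYC at 28.9 and 17.9 FPKM. Of 13 mitochondrial chaperones and proteases 8 were below 0, with a median of -0.15 as deposited and 0.04 with equal sums. The chaperonin HSPD1 was at 226 FPKM (70.3 to 382) and 116 FPKM (29.7 to 202), whereas HSPA9 was at 121 FPKM in both columns. In both lists 0 genes rose or fell, against the 1.18% of all kept genes.

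Cytosolic ribosomal protein genes and nuclear genes of the respiratory chain also had mostly lower values in the induced column. All 76 kept cytosolic ribosomal protein genes were below 0, with a median of -0.79, and 67 of 74 respiratory chain genes were below 0, with a median of -0.30. The members' median of -0.41 lay between both as deposited, but after quantile normalization it was -0.33, beside -0.32 for the cytosolic ribosomal proteins and -0.11 for the respiratory chain. Their levels differ, with uninduced medians of 576 and 111 FPKM against 48.9 FPKM for the members, and the part of level in this order was not tested. RPS27 was at 959.5 and 692 FPKM, RPL4 at 1064 and 563 FPKM, ATP5B at 344 and 262 FPKM, and ATP5J2 at 298 and 200.0 FPKM. In both lists 0 genes rose or fell, against the 1.18% of all kept genes.

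**Figure D4:**
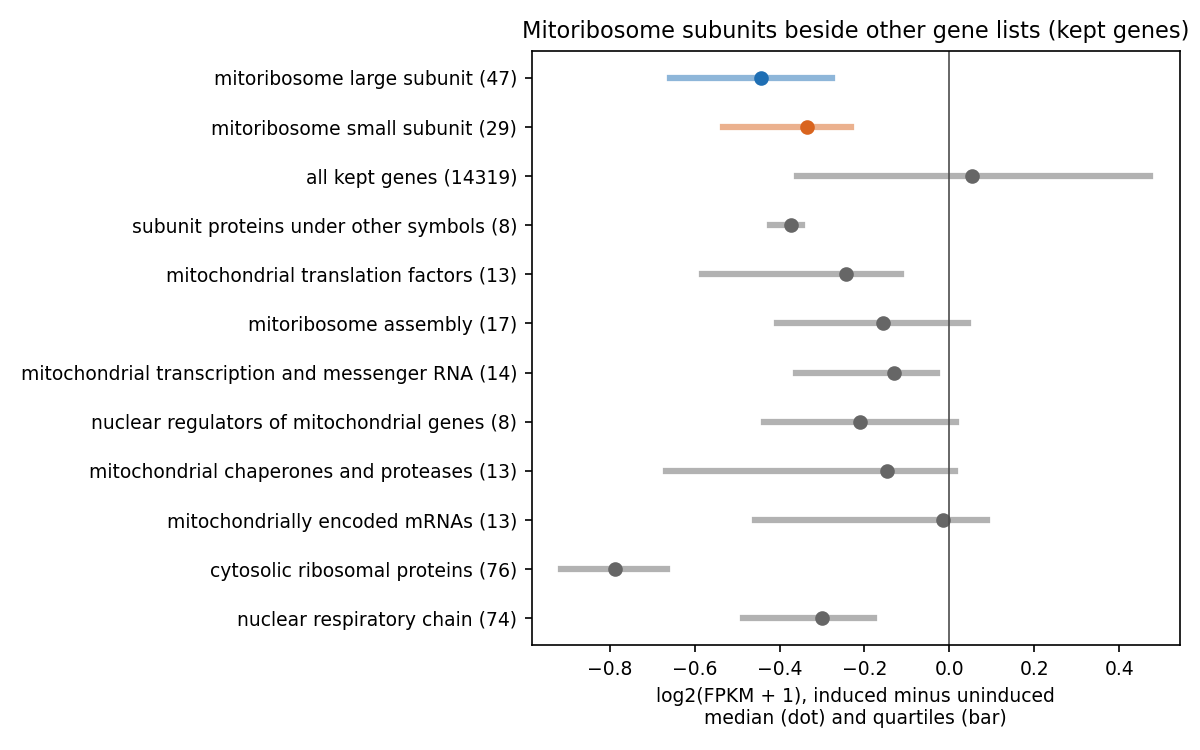
Median (dot) and quartiles (bar) of the log2(FPKM + 1) difference, induced minus uninduced, for each list, with the number of kept genes in parentheses. The large (-0.44) and small (-0.34) subunit lie below all kept genes (0.05) and the mitochondrially encoded messenger RNAs (-0.01), and above cytosolic ribosomal proteins (-0.79) in the values as deposited.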

How the data were processed

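The deposited values are FPKM with lower and upper confidence bounds, per the file headers, with 1 column per group. TopHat and hg19 are the aligner and build that the submitters' processing notes name. Not given in the sources used here are versions, the quantifier, the interval level and any pooling of replicates. Libraries were not stranded, per the labels' protocols. Column names gave the groups, and 3 further value columns were left out because they match no sample used here.

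The filter on low values was 1 FPKM in either column. With 1 value per group no test could be fitted, and a gene was called when its deposited intervals did not overlap, except 10 rows with malformed bounds. Values are log2(FPKM + 1) differences, computed with Python 3.11.15 and pandas 2.3.3. Table starts count from 0 and are printed from 1. Named members are the 5 lowest, 5 highest and 3 most abundant per subunit, those nearest to the threshold and a fixed set (MRPL12, MRPS12, MRPS18A to C, MRPS30, MRPS36), and the 2 most abundant genes of other lists. Other genes were named after their values were seen. Members and lists were chosen with earlier results of these data known. The looser criterion takes the distance from FPKM to upper bound in both columns, in quadrature.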

Additional observations from a re-analysis of the deposited data

How the results depend on the processing

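The count of 0 members that rose or fell was also 0 with equal column sums, after quantile normalization and by the looser interval criterion. The other alternatives (a pseudocount of 0.1, no filter, 1 FPKM required in both columns, every row as its own gene, subunits by place in the ribosome, members alone in their span) leave the members' intervals as they are and say nothing of the stability of that count. The wide intervals limit this count, since in median over the members the distance from the FPKM to its upper bound was 78.2% of the FPKM uninduced and 84.1% induced, and 16 and 22 members had a lower bound of 0. With equal column sums the medians moved to -0.22 for all members, -0.25 for the large and -0.14 for the small subunit. Without members that share their span, an alternative added after seeing the data, the small subunit median was -0.10 and the large minus small difference -0.34. Both values count MRPS30, MRPS18A and MRPS36 as small subunit genes. After quantile normalization of all members the large minus small difference was -0.04. Equal sums multiply each column by 1 factor and so shift all members by nearly the same amount. For that reason all 27 named members moved by over 0.1, 1 of them to the other side of 0. After quantile normalization 14 of the 27 moved by over 0.1, 0 of them across 0. No paired analysis was possible because replicates have no separate columns, and fits leaving out a replicate or with a replicate block were not run.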

Other observations

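Of 67 rows with the symbol of a mitochondrial ribosomal protein pseudogene, 58 were listed at 0 in both columns and 2 were kept. MRPL45P2 was at 2.55 FPKM uninduced and 3.67 FPKM induced, and MRPS31P5 at 2.08 and 4.002 FPKM, and neither was called. The 32 members with such a pseudogene had a median difference of -0.34 and the 44 without one a median of -0.44, with 39 of 44 below 0. The other 9 rows with a member's symbol were under the threshold. Of these, 8 lie on patch or alternate haplotype sequences and were listed at 0 in both columns, 6 of them for MRPS18B, and a further row of MRPL30 (ENSG00000273155) was at 0.711 FPKM uninduced, just outside the threshold.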
